A study of Mus musculus with 6 samples.

Results

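Many transcripts first met as full-length cDNA clones of the mouse testis still carry, or long carried, the RIKEN clone number as their gene name. The genes described here are those whose name on the array is a RIKEN clone number with the same first 4 digits as 4921504E06Rik, 4922505E12Rik, 4930568G15Rik, 4931419H13Rik, 4932430A15Rik or 4933429K18Rik. These 6 prefixes were given to clones from adult testis libraries. There were 722 such genes among 34844 gene and locus names on the array, read by 820 probes. The prefix of 4930568G15Rik gave 440 of them, that of 4933429K18Rik 153, that of 4921504E06Rik 55, that of 4931419H13Rik 38, that of 4932430A15Rik 31 and that of 4922505E12Rik 5. The rule that picks the genes uses the name alone and no measured value.

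RIKEN sequenced full-length cDNA from many mouse tissues and gave each gene model the number of a clone until its product was studied. The testis contributed many such clones, because spermatocytes and round spermatids transcribe an unusually broad part of the genome, including long noncoding RNAs (lncRNAs) and genes of the sperm flagellum and acrosome. The number of a clone therefore says where a transcript was once cloned, and says nothing of what its product does. Many of these transcripts have no known function.

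The series measured total RNA of whole testes from male mice at 5 months of age on the C57BL/6 background. A group of 3 testes came from AROM+ mice, transgenic mice that over-express aromatase, which converts androgens to oestrogens, and a group of 3 came from wild-type (WT) mice. The promoter that drives the transgene is not given in the sources used here, and each sample is a single whole testis on 1 one-colour Agilent array. All 6 arrays lay on 1 slide, with WT in row 1 and AROM+ in row 2, so position on the slide and genotype cannot be told apart. The labels number the testes within a group and give no animal numbers, so the p-values measure the spread between these testes. Levels below are log2 of the processed intensity minus the array's 75th percentile, and a difference is AROM+ minus WT on that log2 scale with its standard error (SE). Each gene is read by its brightest probe, and levels of different probes are not compared with each other. In whole testis, fewer cells of a type and less RNA per cell cannot be told apart.

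Spots well above background made up 76.6% to 80.6% of each array, the 75th percentile of intensity lay between 3698 and 5452, and no spot was saturated. Across the clone genes tested, arrays correlated at r = 0.994 to 0.997 within WT, 0.987 to 0.996 within AROM+ and 0.978 to 0.993 between the groups, where genes are not independent replicates. Markers listed for germ cells, Sertoli cells and Leydig cells were detected: apart from Ret in WT, each one with a probe passed the background test on all 3 arrays of both groups. Since most spots of each array passed it, this does not test the testis label.

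The sequences that carry the largest changes among lncRNAs are shown first, since for these genes the probe and its place in the genome are the only identity a reader can hold on to. They are 60-base probes as deposited, written 5′ to 3′, and coordinates are those of the files (mm9). The first 5 belong to lncRNA genes among the 10 largest falls, and the last 2 to the lncRNA genes among the 10 largest rises. Whether a probe lies in an exon or an intron was not read, since no annotation of that build was used here.
4930504D19Rik, chr6:84486257-84486315, plus strand: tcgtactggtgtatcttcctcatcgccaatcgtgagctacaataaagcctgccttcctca
4930401C15Rik, chr10:25499120-25499178, minus strand: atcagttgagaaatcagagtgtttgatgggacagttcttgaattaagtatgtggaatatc
4930562F07Rik, chr1:162004892-162004951, minus strand: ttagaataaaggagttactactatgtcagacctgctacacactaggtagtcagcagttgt
4930544M13Rik, chr13:115487954-115488013, plus strand: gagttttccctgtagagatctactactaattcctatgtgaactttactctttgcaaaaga
4933438B17Rik, chr5:127568008-127568067, plus strand: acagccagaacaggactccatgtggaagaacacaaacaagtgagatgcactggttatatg
4931440J10Rik, chr14:63394654-63394713, minus strand: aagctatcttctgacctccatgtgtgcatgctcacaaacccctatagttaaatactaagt
4930577N17Rik, chr3:51082243-51082302, plus strand: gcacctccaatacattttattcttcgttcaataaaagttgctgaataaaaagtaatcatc

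Most of the clone genes were lower in AROM+ testes, nearly all of them by less than 2-fold. Of the 722 genes, 662 were tested, because their probe stood well above background on each array of WT, of AROM+ or of both. In these, 458 were called lower and 15 higher, and 189 were not called (limma, adjusted p under 0.05, adjusted over all 28917 features tested). The share called lower was 69.2%, where 31.4% of all features tested were called lower. The share called higher was 2.27%, where 14.5% of all features were. The falls that passed the test ran from −0.25 to −1.64 with a median of −0.60, and 456 of the 458 had groups that did not overlap. With 3 arrays per group a call nearly always comes with such a gap, so this adds little to the calls. Without WT replicate 3 the count lower was 277 of 662 and the count higher 4, and without WT replicate 1 the count higher was 5. Without AROM+ replicates 1, 2 and 3 the count higher was 8, 9 and 8. With spike-in scaling it was 5 and with no filter 8.

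The median difference over the 662 genes was −0.52, with quartiles at −0.69 and −0.37, beside a median of −0.19 over all features tested. The clone genes therefore lay 0.33 further down than the median feature on the log2 scale, and this is a description with no test. A difference below 0 was found in 626 of the 662 genes, against 66.2% of all features. Groups did not overlap in 493 genes with the lower values in AROM+ and in 20 with the higher, where 41.1% and 17.9% of all features did so. Large falls were few: 33 clone genes were called and at least 2-fold lower, and 1.37% of all features were. That count was 15 under normexp background correction. Only 2 clone genes were called and at least 2-fold higher, where 5.01% of all features were.

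**Figure D1:**
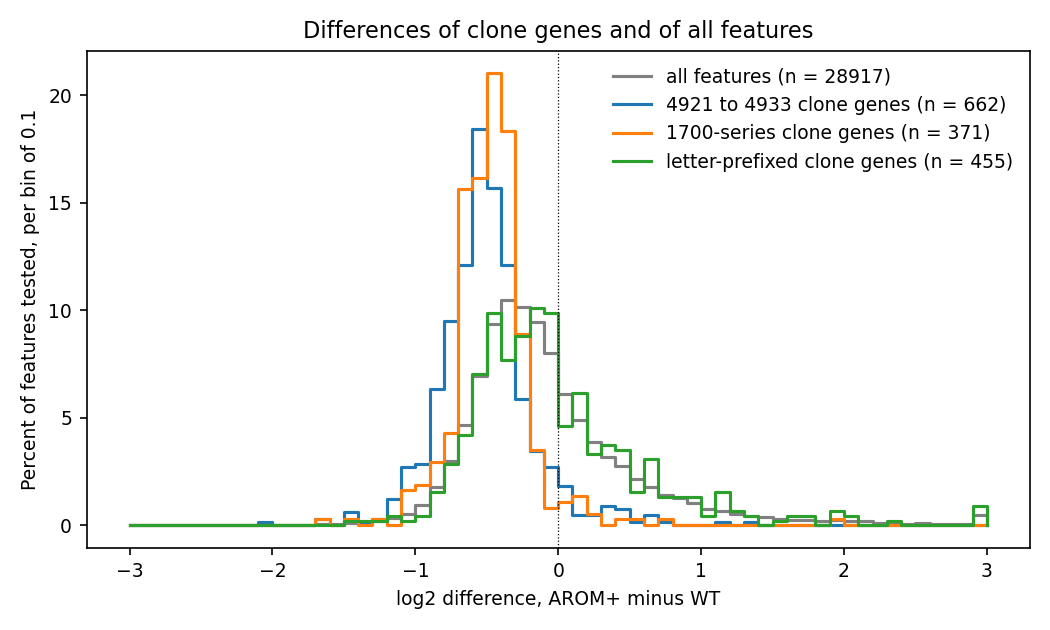
Percent of features (vertical axis, per bin of 0.1) at each log2 difference, AROM+ minus WT (horizontal axis), for the 662 clone genes, 371 genes of the 1700-series, 455 letter-prefixed clone genes and all 28917 features tested. The clone genes and the 1700-series peak below 0, with medians of −0.52 and −0.46, while all features have a median of −0.19 and a longer arm to the right.

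The 60 genes not tested were too dim for the filter in both groups. Of these, 41 were well above background on 0 arrays and 19 on 1 to 4 arrays. A further 10 genes passed the filter only through WT, and 4 of them were called lower. No clone gene passed only through AROM+. Among all features tested, a larger share than of the clone genes passed only through WT. Fewer of all features passed only through AROM+ than only through WT. Passing through WT alone was therefore not particular to the clone genes. Over the 652 genes well above background on all 6 arrays the median difference was −0.52 as well. Since a gene that passes through WT alone had to be lower in AROM+, the counts above describe the genes tested and not all 722.

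The shift was seen in the arrays themselves. The median level of the clone genes was −0.32, −0.48 and −0.23 on the WT arrays, against −0.93, −0.81 and −0.95 on the AROM+ arrays. The 3 WT arrays all lay above the 3 AROM+ arrays. The distance from the median of all features on the same array was 0.80, 0.61 and 0.88 in WT and 0.13, 0.29 and 0.12 in AROM+. WT replicate 2 was the lowest of the WT arrays for 450 of the 662 genes, and AROM+ replicate 2 was the lowest of the AROM+ arrays for 55. Over all features tested the same arrays were the lowest of their group for 36.0% and 25.8%. Leaving out WT replicate 2 moved the count at least 2-fold lower from 33 to 54, and leaving out AROM+ replicate 3 moved it to 18.

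Markers of the cell types of the testis moved too, and their part in the falls of the clone genes was not tested. All 15 round spermatid markers were called lower, with a median of −0.43, and their summed level (linear intensity in units of the array's 75th percentile) ranged from 128 to 136 in WT and from 94.7 to 103 in AROM+. In the elongating spermatid list 9 of 14 were lower and 0 higher, with a median of −0.42 and sums of 308 to 392 in WT and 252 to 265 in AROM+. In the spermatocyte and meiosis list 9 of 14 were lower and 0 higher, with a median of −0.32. The summed spermatocyte level ranged from 81.7 to 83.4 in WT and from 63.5 to 72.5 in AROM+. Spermatogonium markers had a median of 0.02, with 4 of 15 higher and 1 lower, and sums of 15.5 to 16.7 in WT and 16.1 to 19.3 in AROM+. Sertoli cell markers had 5 of 15 higher, Leydig cell markers 6 of 14, macrophage markers 11 of 14 and endothelium and matrix markers 12 of 15, with medians of 0.20, 0.40, 1.86 and 1.45. In the endothelium and matrix list Kdr was called lower (−0.39). In the Sertoli and Leydig lists 0 were called lower, though the Leydig markers Cyp17a1, Star, Hsd17b3 and Ces1d lay below 0 (−0.42, −0.40, −1.08 and −0.20). Sums ranged from 56.6 to 67.6 in WT and 73.9 to 82.1 in AROM+ for Sertoli cells, from 46.6 to 67.5 and 65.4 to 88.6 for Leydig cells, and for endothelium and matrix from 21.8 to 28.1 in WT, with every AROM+ array above these and the highest at 51.8. The macrophage sum ranged from 53.4 to 70.9 in WT and from 84.0 to 111 in AROM+, without overlap, although Csf1r and Aif1 were called lower. In WT the brightest probes of this sum, which weigh most in it, were those of Itgam (−0.09, not called), Aif1 and Csf1r.

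The largest falls were noncoding or uncharacterised transcripts for the most part. Of the 33 genes at least 2-fold lower, 22 are lncRNAs in RefSeq, 3 are protein-coding and 8 had no RefSeq match; with normexp background correction 15 genes in all were at least 2-fold lower. For 4930571B16Rik (probe A_55_P2315747, chr17:55702746-55702805, plus strand), built on an adult testis cDNA, the arrays gave −3.98, −4.90 and −4.02 in WT and −5.52, −5.98 and −6.32 in AROM+. The 3 AROM+ arrays lay below the lowest WT array, and the difference was −1.64 ± 0.30 (limma, adjusted p = 0.00800, n = 3 per group), 3.12-fold lower. With normexp background correction the difference shrank to −1.06 and still passed (adjusted p = 0.00341). The lncRNA 4930504D19Rik, whose probe is printed above, read −2.78, −3.58 and −2.97 in WT and −4.93, −4.39 and −4.86 in AROM+. Its groups were apart by more than the spread within either, at −1.61 ± 0.24 (adjusted p = 0.00509).

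The protein-coding gene with the largest fall was 4930519G04Rik (chr5:115333119-115333178, plus strand), whose product has no established role. It read −1.35, −1.64 and −1.52 in WT and −2.77, −2.93 and −3.22 in AROM+, and the groups did not overlap. The difference was −1.46 ± 0.14 (limma, adjusted p = 0.00281), 2.76-fold lower. The testis cDNA 4932430A15Rik (chr4:11941782-11941841, minus strand) read −2.51, −2.60 and −2.52 in WT, a narrow range, and −4.30, −3.68 and −3.94 in AROM+. It differed by −1.43 ± 0.16 (adjusted p = 0.00345) and was also the gene of smallest adjusted p with its prefix. The lncRNA 4930401C15Rik read −3.59, −3.74 and −3.27 in WT and −4.69, −4.95 and −5.20 in AROM+, again without overlap, and differed by −1.41 ± 0.17 (adjusted p = 0.00381).

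The lncRNA 4930562F07Rik was above the 75th percentile of the array in WT and below it in AROM+. It read 0.47, 0.23 and 0.29 in WT and −1.31, −0.97 and −0.92 in AROM+. The fall was −1.40 ± 0.13 (limma, adjusted p = 0.00258), 2.64-fold, and it was the RefSeq noncoding transcript (NR accession) of smallest adjusted p. The unmatched testis cDNA 4930478M13Rik (chr15:99935712-99935771, minus strand) fell by a like amount with a wider spread. It read −0.11, −0.26 and 0.13 in WT and −1.26, −1.02 and −2.15 in AROM+, where replicate 3 lay lowest. The difference was −1.40 ± 0.29 (adjusted p = 0.0105).

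The remaining 3 of the 10 largest falls were 4930544M13Rik, 4930458D05Rik and 4933438B17Rik. The lncRNA 4930544M13Rik read −4.03, −4.98 and −4.36 in WT and −5.74, −5.33 and −5.90 in AROM+; WT replicate 2 lay well below the other WT arrays and still above every AROM+ array. It differed by −1.20 ± 0.26 (limma, adjusted p = 0.0128). By contrast 4930458D05Rik (chr5:101269824-101269883, minus strand), a RefSeq model transcript, read 2.35, 2.14 and 2.33 in WT and 1.20, 1.16 and 0.92 in AROM+. Both groups were tight and the fall was −1.18 ± 0.12 (adjusted p = 0.00284). The lncRNA 4933438B17Rik read 0.25, 0.02 and 0.25 in WT and −1.28, −0.99 and −0.72 in AROM+, a difference of −1.17 ± 0.16 (adjusted p = 0.00433). All 10 of these calls held under each of the 19 other settings, leaving out any 1 array included.

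**Figure D2:**
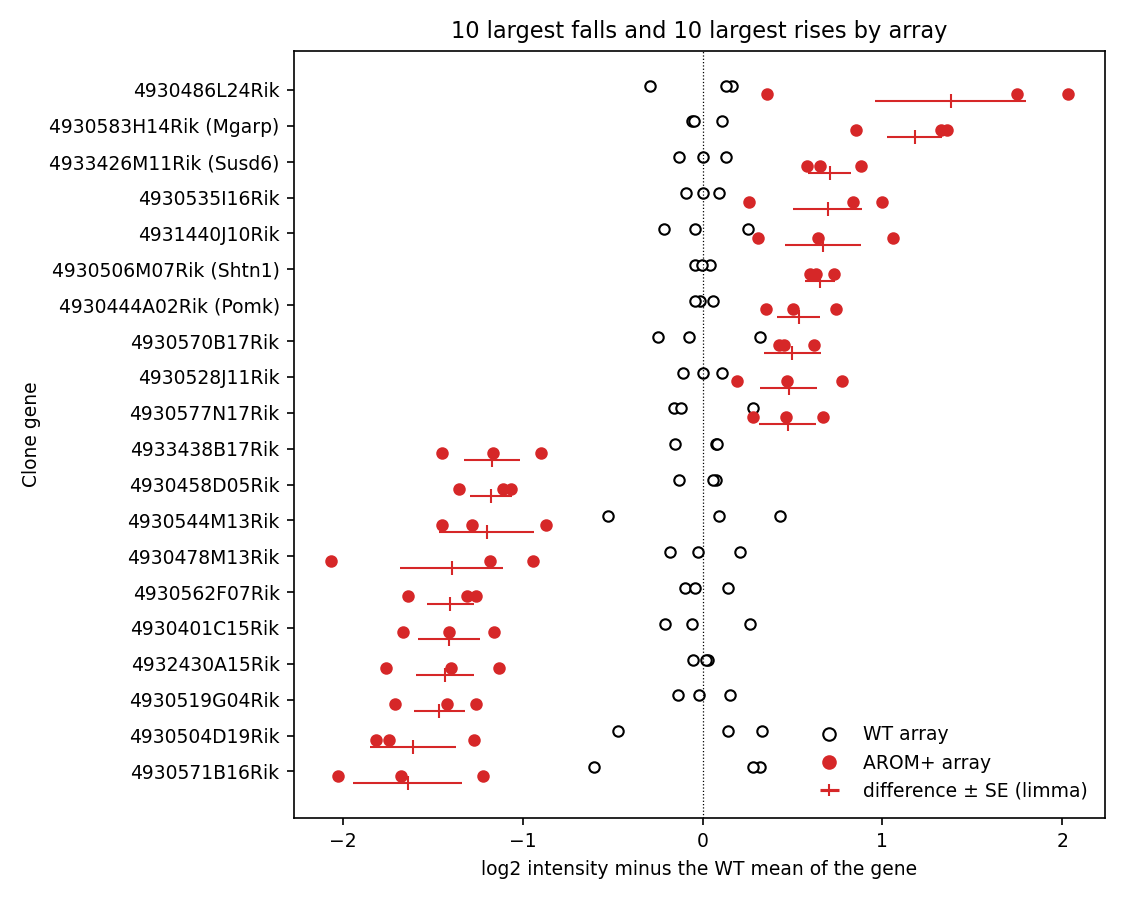
Levels on each array for the 10 largest falls and 10 largest rises among called clone genes with non-overlapping groups, as log2 intensity minus the gene's WT mean (horizontal axis), 1 gene per line. Open circles are WT arrays, red circles AROM+ arrays, and the red tick with its bar is the difference ± SE. The red circles of the falls lie left of the open ones, and in 4930486L24Rik 1 of the 3 red circles lies far from the others.

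The smallest adjusted p among the clone genes belonged to the lncRNA 4930568G15Rik (chr1:166994160-166994219, minus strand). Its probe was designed on a cDNA of another RIKEN clone, from neonate cerebellum, so the clone number and the sequence on the array came from different tissues. It read −3.82, −3.85 and −3.75 in WT and −4.86, −4.87 and −5.09 in AROM+. The groups were far apart beside their spread, at −1.13 ± 0.10 (limma, adjusted p = 0.00236), and the difference became −0.75 with normexp background correction. The lncRNA 4930563E18Rik passed the background test on all 3 WT arrays and on 0 of the AROM+ arrays, so a bound was also computed. The bound was 1.49-fold lower (−0.57 on the log2 scale), measured against a floor on each AROM+ array. The floor was the dimmest value still well above background there, unless the gene's own probe was brighter. The bound has no standard error and is not a lower limit on the fall, since the interval of the measured difference includes smaller falls. The measured difference of 4930563E18Rik was −0.94 ± 0.23 (adjusted p = 0.0185), with a 95% interval from −1.49 to −0.38. It no longer passed without WT replicate 2 (−0.89, adjusted p = 0.0509) or without WT replicate 3 (−0.94, adjusted p = 0.0574), and normexp background correction gave −0.36.

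Genes that have since been given a name let the list be read by role. RefSeq gives 151 of the clone genes another symbol; 147 of these were tested, 114 were called lower and 8 higher, with a median of −0.51. Cfap54 (4930485B16Rik, chr10:92331456-92331515), a protein of the central apparatus of the axoneme that motile cilia and the sperm flagellum need, read −3.02, −3.23 and −3.11 in WT and −3.96, −3.97 and −4.22 in AROM+. It fell by 0.93 ± 0.11 on the log2 scale (limma, adjusted p = 0.00366), with no overlap. Dnaaf6 (4930521A18Rik, chr1:31280904-31280963), a factor that helps assemble axonemal dynein arms in the cytoplasm, read −1.80, −2.25 and −2.05 in WT and −2.75, −2.93 and −3.43 in AROM+. Its difference was −1.01 ± 0.20 (adjusted p = 0.00992).

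Further renamed genes moved the same way. Mgat4d (4933434I20Rik, chr8:85892875-85892934), a germ cell protein of the Golgi that restrains N-glycan processing, read 0.49, 0.58 and 0.82 in WT and −0.16, −0.15 and −0.53 in AROM+. It differed by −0.91 ± 0.14 (limma, adjusted p = 0.00568), and all WT arrays were above all AROM+ arrays. H2al3 (4930557A04Rik, on the X chromosome at 9427253 to 9427312), a testis histone H2A variant, read 2.64, 2.92 and 2.79 in WT and 1.73, 2.18 and 2.22 in AROM+. The fall was −0.74 ± 0.16 (adjusted p = 0.0111), again without overlap. Fam221b (4930412F15Rik, −0.85 ± 0.11), Trim80 (4933422H20Rik, −0.87 ± 0.15), a tripartite motif protein, and Ppp1r14bl (4933415F23Rik, −0.85 ± 0.13), a relative of protein phosphatase 1 inhibitors, were lower as well.

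Antisense and pseudogene transcripts were among the renamed genes too. Pip5k1bos (4930418C01Rik, chr19:24505117-24505176), named as the opposite-strand transcript of Pip5k1b, read 0.60, 0.26 and 0.68 in WT and −0.42, −0.26 and −0.87 in AROM+. Its difference was −1.03 ± 0.19 (limma, adjusted p = 0.00788), with the groups apart. Alkbh3os1 (4921507L20Rik) differed by −0.88 ± 0.13 (adjusted p = 0.00498) and Phf8-ps (4921501E09Rik), a transcribed pseudogene, by −0.86 ± 0.10 (adjusted p = 0.00351). A 60-base probe of a pseudogene may also bind its parent transcript, and this was not tested.

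The genes of smallest adjusted p by prefix and by transcript class were all lower. One was 4921504E06Rik (chr2:19384464-19384523), which read 1.34, 1.33 and 1.47 in WT and 0.44, 0.58 and 0.37 in AROM+, a difference of −0.92 ± 0.10 (limma, adjusted p = 0.00312). The others were Ccdc185 (4922505E12Rik), a coiled-coil protein, at −0.68 ± 0.12, the lncRNA 4931419H13Rik at −0.69 ± 0.10 and the lncRNA 4933429K18Rik at −1.08 ± 0.13, beside 4930568G15Rik and 4932430A15Rik described above. Among Ensembl transcripts it was 4930444P10Rik (chr1:16056134-16056193), which read 2.18, 2.26 and 2.23 in WT and 1.57, 1.53 and 1.54 in AROM+. The replicates of each group lay close together, and the groups differed by −0.68 ± 0.08 (adjusted p = 0.00362).

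Rises were few, and most of their calls were lost when 1 array was left out. Mgarp (4930583H14Rik, chr3:51192355-51192414, minus strand), a mitochondrial protein known from steroid-producing tissues, read 0.53, 0.70 and 0.54 in WT and 1.95, 1.92 and 1.44 in AROM+. Each AROM+ array lay above every WT array, and the rise was 1.18 ± 0.15 (limma, adjusted p = 0.00412), 2.26-fold. The largest value belonged to 4930486L24Rik (chr13:60944260-60944319, minus strand), which RefSeq lists as protein-coding. It read −0.58, −0.62 and −1.04 in WT and 1.00, −0.38 and 1.29 in AROM+. AROM+ replicate 2 lay near the WT arrays while the other two were far above them. The difference was 1.38 ± 0.42 (adjusted p = 0.0350), and the call was lost on leaving out any 1 array other than AROM+ replicate 2: without WT replicates 1, 2 and 3 the adjusted p was 0.0704, 0.0685 and 0.107, and without AROM+ replicates 1 and 3 it was 0.0944 and 0.0833. It was also lost with no filter (0.0547) and with array weights (0.0568).

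Susd6, Shtn1 and Pomk rose by less than 2-fold with tighter groups. Susd6 (4933426M11Rik, chr12:81981617-81981676), a sushi domain protein, read −1.26, −1.13 and −1.39 in WT and −0.61, −0.68 and −0.38 in AROM+. The rise was 0.71 ± 0.12 (limma, adjusted p = 0.00661). Shtn1 (4930506M07Rik, chr19:59048041-59048100), shootin 1, a protein known for axon outgrowth, read −1.34, −1.25 and −1.30 in WT and −0.67, −0.70 and −0.57 in AROM+, a rise of 0.65 ± 0.09 (adjusted p = 0.00412). Neither gene had overlapping groups. Pomk (4930444A02Rik, chr8:27092130-27092189), a kinase that phosphorylates O-mannose on dystroglycan, read −1.10, −1.03 and −1.13 in WT and −0.34, −0.58 and −0.73 in AROM+, a rise of 0.53 ± 0.12 (adjusted p = 0.0131). With spike-in scaling Pomk stood at 0.48 (adjusted p = 0.103). The calls of Mgarp, Susd6 and Shtn1 held under all 19 other settings.

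The other 5 named rises were called in the fit of all arrays and lost when single arrays were left out. The lncRNA 4931440J10Rik read −4.51, −4.04 and −4.34 in WT and −3.24, −3.66 and −3.99 in AROM+, a rise of 0.67 ± 0.21 (limma, adjusted p = 0.0397). Its lowest AROM+ array lay just above its highest WT array, and without WT replicates 1 and 3 or AROM+ replicates 1 and 2 the adjusted p was 0.116, 0.106, 0.0837 and 0.0822. For 4930535I16Rik the arrays gave −5.92, −5.73 and −5.82 in WT and −5.57, −4.83 and −4.99 in AROM+, and the rise was 0.70 ± 0.19 (adjusted p = 0.0263). The adjusted p was 0.0787 and 0.0743 without WT replicates 1 and 3, and 0.0671 and 0.0684 without AROM+ replicates 2 and 3. The rise of 4930535I16Rik was 0.42 with normexp background correction, and both genes were dim.

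4930570B17Rik read −2.62, −2.05 and −2.44 in WT and −1.95, −1.75 and −1.92 in AROM+, with little room between the groups. The rise was 0.50 ± 0.16 (limma, adjusted p = 0.0398), and leaving out WT replicates 1 or 3 or any 1 AROM+ array gave adjusted p values of 0.0674 to 0.116. For 4930528J11Rik, on an adult testis cDNA, the arrays gave −0.19, −0.40 and −0.29 in WT and 0.49, 0.18 and −0.10 in AROM+. The rise was 0.48 ± 0.16 (adjusted p = 0.0454), and without any 1 WT array, AROM+ replicate 1 or AROM+ replicate 2 the adjusted p lay between 0.0771 and 0.115. The lncRNA 4930577N17Rik read −5.16, −4.72 and −5.13 in WT and −4.33, −4.72 and −4.54 in AROM+, so that WT replicate 2 and AROM+ replicate 2 were at nearly the same level. Its rise was 0.47 ± 0.16 (adjusted p = 0.0472). It fell to 0.20 (adjusted p = 0.220) with normexp background correction, and was lost without WT replicates 1 or 3 or AROM+ replicates 1 or 3, at 0.0894 to 0.139. With spike-in scaling the adjusted p of 4931440J10Rik, 4930570B17Rik, 4930528J11Rik and 4930577N17Rik was 0.113, 0.104, 0.192 and 0.153, and with no filter 0.0599, 0.0589, 0.0661 and 0.0685. Quantile normalization ended the call of 4930570B17Rik (0.0502), centring that of 4930528J11Rik (0.0533), and eBayes with a trend that of 4930577N17Rik (0.0651).

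The other clone genes called higher were Meiob, Cmip, Fam210a, Gskip and 4933415E08Rik, at 0.41, 0.42, 0.36, 0.36 and 0.34. None of these calls held without WT replicate 3, where the 4 clone genes called higher were Mgarp, Susd6, Shtn1 and Pomk. Meiob (4930528F23Rik, chr17:24976585-24976644), a single-strand DNA binding protein of meiotic recombination, read 0.06, 0.22 and 0.22 in WT and 0.32, 0.64 and 0.77 in AROM+. The rise of 0.41 ± 0.13 (limma, adjusted p = 0.0430) runs against the spermatocyte and meiosis list, in which 0 of 14 genes were higher; Meiob belongs to that list by its present symbol and was not counted there because the array carries the clone name. The Meiob call was lost without WT replicates 1, 2 or 3 (adjusted p = 0.127, 0.0737 and 0.0915) and without AROM+ replicates 2 or 3 (0.109 and 0.101). Centring on the median of features (0.0571), normexp background correction (0.0543), spike-in scaling (0.0690), scaling to bright probes (0.0610) and no filter (0.0619) ended it as well.

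Among the 189 genes not called, 168 had a difference below 0, and for 150 the 95% interval lay within 1 of 0 on the log2 scale, that is, within 2-fold either way. For 38 the interval reached a fall of 1 or more. The most precise was 4930401B11Rik, with 1.80, 1.78 and 1.71 in WT and 1.72, 1.70 and 1.77 in AROM+. Its groups overlapped, and the difference was −0.03 with a 95% interval from −0.23 to 0.16. For 4931428L18Rik the difference was −0.17 (−0.37 to 0.03) and for 4930552P12Rik −0.08 (−0.28 to 0.13). For 4933434E20Rik it was −0.18 (−0.39 to 0.02) by the brightest probe, while its 3 probes ran from −0.47 to 0.02 and 1 of them was called lower. With quantile normalization 4930401B11Rik and 4933434E20Rik stood slightly above 0. At an unadjusted p under 0.05 there were 520 of the 662 genes. Most of all features tested also lay under that threshold, though a smaller share than of the clone genes. The count alone therefore does not set the clone genes apart.

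Most genes tested were called lower with each of the 6 clone prefixes. The count was 274 of 399 for the prefix of 4930568G15Rik, 92 of 140 for that of 4933429K18Rik, 41 of 51 for that of 4921504E06Rik, 26 of 38 for that of 4931419H13Rik, 20 of 29 for that of 4932430A15Rik and 5 of 5 for that of 4922505E12Rik. The medians ran from −0.48 for the prefix of 4931419H13Rik to −0.54 for that of 4932430A15Rik. No test of the prefixes against each other was made.

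Coding and noncoding members had like medians. RefSeq matched 560 of the 722 genes, 262 through an accession, 273 through the symbol and 25 through a synonym. Among those tested, 194 of 281 lncRNAs were called lower and 2 higher, with a median of −0.55, and 175 of 229 protein-coding genes were called lower and 9 higher, with a median of −0.51. Unmatched genes had 79 of 138 lower, 4 higher and a median of −0.51. By the accession of the probe, 152 of 200 RefSeq mRNAs were lower, 54 of 67 RefSeq noncoding transcripts, 39 of 46 RefSeq models, 13 of 20 Ensembl transcripts and 200 of 329 other cDNAs. Over all features of the array the share lower was 29.8% for RefSeq mRNAs, 43.3% for RefSeq noncoding transcripts, 39.3% for RefSeq models, 40.2% for Ensembl transcripts and 31.3% for other cDNAs. Of the 15 rises, 9 were RefSeq mRNAs.

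The source of the cDNA on the array could be read for about as many genes as not. The probe description named an adult male testis library for 323 genes, another library for 45 and none for 354. Of the testis cDNAs 288 were tested, 183 were lower and 2 higher, and the median was −0.54. Of those from another library 33 were tested, 14 were lower and 4 higher, and the median was −0.34. The testis cDNAs held 23 of the 33 genes at least 2-fold lower. The difference between these sources was not tested.

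**Figure D3:**
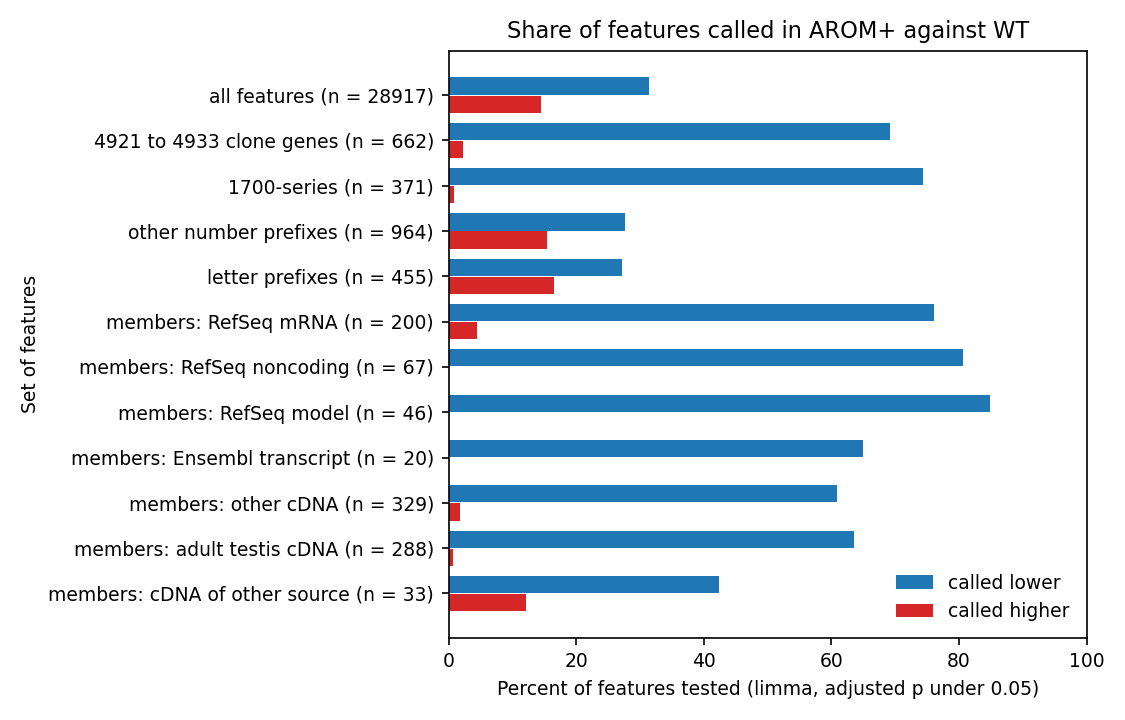
Percent of features tested that were called lower (blue bars) or higher (red bars) in AROM+ (limma, adjusted p under 0.05) for all features, the clone genes, other clone name series, and the clone genes split by transcript class and by cDNA source. The blue bar is 31.4% for all features and 69.2% for the clone genes, and the red bar of cDNAs from other sources is the tallest red bar among the splits of the clone genes.

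Other RIKEN numbers gave a comparison of names with unlike sources. In the 1700-series, also used for testis clones, 276 of 371 genes tested were lower (74.4%) and 3 higher, with a median of −0.46 and 7 genes at least 2-fold lower. In clone names with other number prefixes 266 of 964 were lower (27.6%) and 148 higher, with a median of −0.14. In clone names that begin with a letter 124 of 455 were lower (27.3%) and 75 higher, with a median of −0.16. No test was made between the series.

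The falls were spread over the genome. Chromosome medians of the clone genes ran from −0.46 on chromosome 6 to −0.67 on chromosome 1. On the X chromosome, whose genes are largely silenced in meiotic spermatocytes and only in part active again in spermatids, 25 of 39 genes tested were called lower and 0 higher. The X median was −0.50, beside −0.03 for all features on the X chromosome, of which 22.8% were lower and 21.9% higher. H2al3, described above, is one of the X-linked genes.

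Genes read by several probes were checked probe by probe. Of 79 such genes, 71 had at least 2 probes that passed the filter. In 41 all of these probes were called lower, in 1 all were called higher, in 23 some were called and some not, and in 6 none was. Probes of 1 gene called in opposite directions occurred in 0 genes. In some genes, however, the probes differed in sign with calls on 1 side only. Those of 4930581F22Rik gave −0.89, called lower, and 0.34, not called, and the latter is its brightest. Those of 4930451C15Rik gave −0.33, not called, and 0.35, called higher. The median gap between the differences of 2 probes of a gene was 0.16. Over all member probes 515 of 750 were lower and 18 higher, where 30.4% and 14.0% of all probes were.

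Many clone genes lie beside another gene, often on the opposite strand. For 90 of them the nearest other named feature tested lay within 10000 bases between probes, with the probes on opposite strands in 68 and on the same strand in 22. The clone gene and its neighbour differed in the same direction in 56 of 90 pairs (62.2%), beside 56.4% over all 6192 such pairs on the array. Both were called lower in 25 of the 90 pairs, where 661 of the 6192 pairs were, and both higher in 1, where 300 were. The clone gene was lower and the neighbour not called in 27, beside 907 of the 6192, and lower with the neighbour higher in 8, beside 288. The reverse, a higher clone gene beside a lower neighbour, occurred in 2, beside 298. The median difference was −0.48 for the clone genes and −0.24 for their neighbours, and the correlation across pairs was r = 0.01 (0.15 over the 6192 pairs), a description over pairs that share arrays and, in part, loci.

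Some pairs moved in opposite directions. The lncRNA 4930473A02Rik (chr2:130378589-130378648, minus strand) lies 776 bases from the probe of Ptpra, a receptor-type tyrosine phosphatase, on the other strand. It read −0.55, −0.58 and −0.51 in WT and −0.83, −1.26 and −1.45 in AROM+, a difference of −0.63 ± 0.16 (limma, adjusted p = 0.0202), while Ptpra differed by 0.74 ± 0.10 (adjusted p = 0.00436). The call of 4930473A02Rik was lost without WT replicates 1 or 3 (adjusted p = 0.0582 and 0.0655) and without AROM+ replicate 2 (0.0571), and with spike-in scaling (−0.69, adjusted p = 0.0578). The protein-coding 4930550C14Rik (chr9:53216176-53216235) read 0.83, 0.69 and 0.84 in WT and −0.09, −0.17 and −0.48 in AROM+. It differed by −1.04 ± 0.13 (adjusted p = 0.00368) and its neighbour Kdelc2, an endoplasmic reticulum protein, by 0.55 ± 0.15 (adjusted p = 0.0270).

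Further pairs were unlike in the same sense. The lncRNA 4930505N22Rik differed by −0.43 ± 0.11 (limma, adjusted p = 0.0183; 0.0665 without WT replicate 3) beside Hps6, a subunit of a complex for lysosome-related organelles, at 0.89 ± 0.15 (adjusted p = 0.00642). 4933417A18Rik differed by −0.45 ± 0.09 (adjusted p = 0.00920) beside Eci3, an enoyl-CoA isomerase, at 0.73 ± 0.14, and stood at −0.23 (adjusted p = 0.0806) with quantile normalization. In the reverse sense, Meiob lay beside Fahd1, a mitochondrial enzyme, at −0.85 ± 0.10, and Shtn1 beside Eno4, the enolase of the sperm flagellum, at −0.49 ± 0.13 (adjusted p = 0.0213).

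Other pairs moved together. Mgarp lay 2305 bases from the probe of Gm5103 on the other strand, which rose by 0.83 ± 0.18 (limma, adjusted p = 0.0111). H2al3 lay beside 1700054O13Rik, at −0.67 ± 0.09 (adjusted p = 0.00455). The lncRNA 4930553J12Rik (−1.04 ± 0.16, adjusted p = 0.00528) lay beside Krtap15, a keratin-associated protein gene, at −0.63 ± 0.19 (adjusted p = 0.0344). The lncRNA 4930442E04Rik (−0.58 ± 0.11, adjusted p = 0.00928) lay opposite to Vax1, a homeobox gene, at −0.66 ± 0.20 (adjusted p = 0.0366). The lncRNA 4930562F07Rik, among the largest falls, lay 2827 bases from 4930523C07Rik, another clone gene on the other strand, at −0.55 ± 0.09 (adjusted p = 0.00620).

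**Figure D4:**
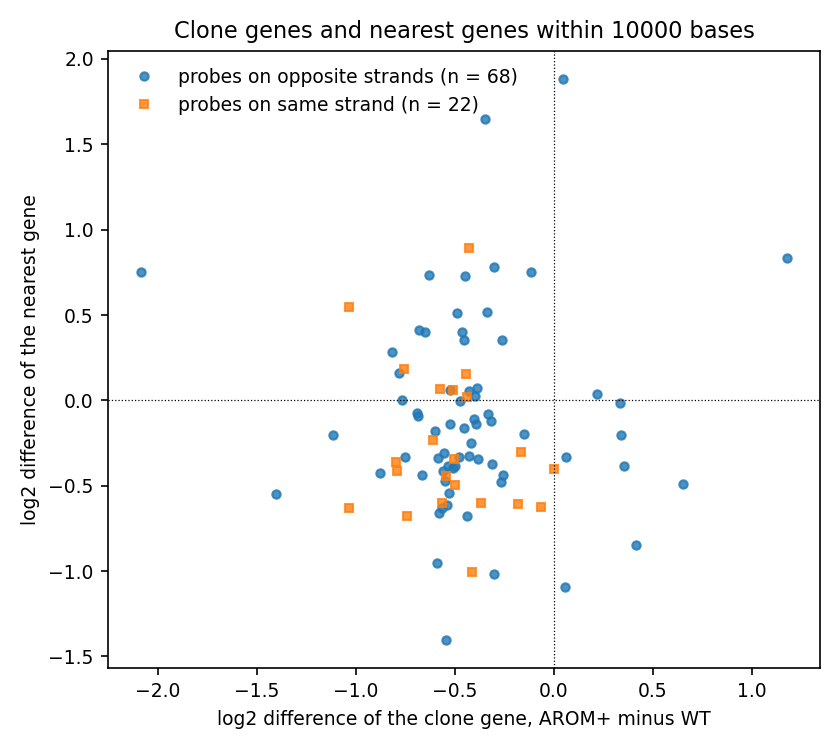
Log2 difference, AROM+ minus WT, of each of 90 clone genes (horizontal axis) against that of its nearest other feature within 10000 bases between probes (vertical axis), with blue circles for probes on opposite strands and orange squares for the same strand. Most points lie left of 0, with neighbours on both sides of 0, and 56 of the 90 pairs share a sign.

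The promoters were searched for 3 motifs known from genes of meiosis and spermatids, in windows from 250 bases before to 50 bases after the start given by RefSeq (GRCm38.p6), on both strands. TGACGTCA is the cAMP response element, bound by CREM in spermatids. GTTGCCA is part of the X-box of RFX factors, which serve genes of cilia and flagella. TAACGG is a site of MYB factors, among them MYBL1 of spermatocytes. The motifs do not overlap each other in letters. A window was at hand for 437 of the clone genes, 488 windows in all.

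GTTGCCA stood in 41 of the 488 windows of the clone genes (8.40%), in 9.69% of windows of the 1700-series and in 4.38% of all 32851 windows. It was in 32 of 346 windows of genes called lower (9.25%), in 5 of 112 of genes not called (4.46%), in 0 of 7 of genes called higher and in 4 of 23 of genes not tested (17.4%). TGACGTCA stood in 10 of 488 windows (2.05%), beside 1.79% of all windows, and TAACGG in 13 (2.66%), beside 2.76%. These shares are descriptions of letters, not of bound factors, and no test was made. The following 3 windows are of lncRNA genes that fell and that are described above, with the motif in capitals (TGACGTCA in the first, TGGCAAC, the reverse complement of GTTGCCA, in the others), each written 5′ to 3′ on the strand of the gene.
4930568G15Rik, GRCm38.p6 chr1:165091881-165092180, minus strand: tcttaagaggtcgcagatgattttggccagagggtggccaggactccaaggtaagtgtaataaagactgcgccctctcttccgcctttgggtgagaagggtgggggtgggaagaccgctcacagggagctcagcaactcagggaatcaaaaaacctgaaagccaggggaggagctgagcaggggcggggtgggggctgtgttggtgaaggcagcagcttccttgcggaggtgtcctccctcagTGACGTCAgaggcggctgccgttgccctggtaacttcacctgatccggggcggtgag
4930562F07Rik, GRCm38.p6 chr1:160077869-160078168, minus strand: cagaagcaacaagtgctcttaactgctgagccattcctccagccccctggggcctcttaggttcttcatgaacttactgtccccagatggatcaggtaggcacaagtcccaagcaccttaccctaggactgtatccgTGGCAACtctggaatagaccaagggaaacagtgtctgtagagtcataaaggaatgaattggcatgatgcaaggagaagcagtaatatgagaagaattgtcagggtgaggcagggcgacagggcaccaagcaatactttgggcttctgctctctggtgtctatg
4933438B17Rik, GRCm38.p6 chr5:127030539-127030838, plus strand: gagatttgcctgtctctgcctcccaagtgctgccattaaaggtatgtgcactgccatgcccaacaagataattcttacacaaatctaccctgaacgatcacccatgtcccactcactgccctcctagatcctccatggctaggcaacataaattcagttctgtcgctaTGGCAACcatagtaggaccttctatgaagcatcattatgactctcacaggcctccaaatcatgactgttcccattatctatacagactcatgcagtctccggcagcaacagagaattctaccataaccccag

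The cAMP response element of 4930568G15Rik began 7 bases before the start, that is at −7, and the X-box part at −113 in 4930562F07Rik and at −82 in 4933438B17Rik. The differences of these genes were −1.13, −1.40 and −1.17. The array data do not bear on whether the letters act as sites.

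The share of clone genes called lower moved with the scaling and with single arrays, and stayed above that of all features under each setting. It ranged from 41.8%, without WT replicate 3, to 72.5%, with array weights, while the share of all features ranged from 17.2% to 33.9% under the same settings. The members' median lay below that of all features by 0.29 to 0.39 under every setting. Of the calls among all features 68.3% were lower, and with quantile normalization 56.8%. Of the calls among clone genes 96.8% were lower, and 96.1% with quantile normalization.

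**Figure D5:**
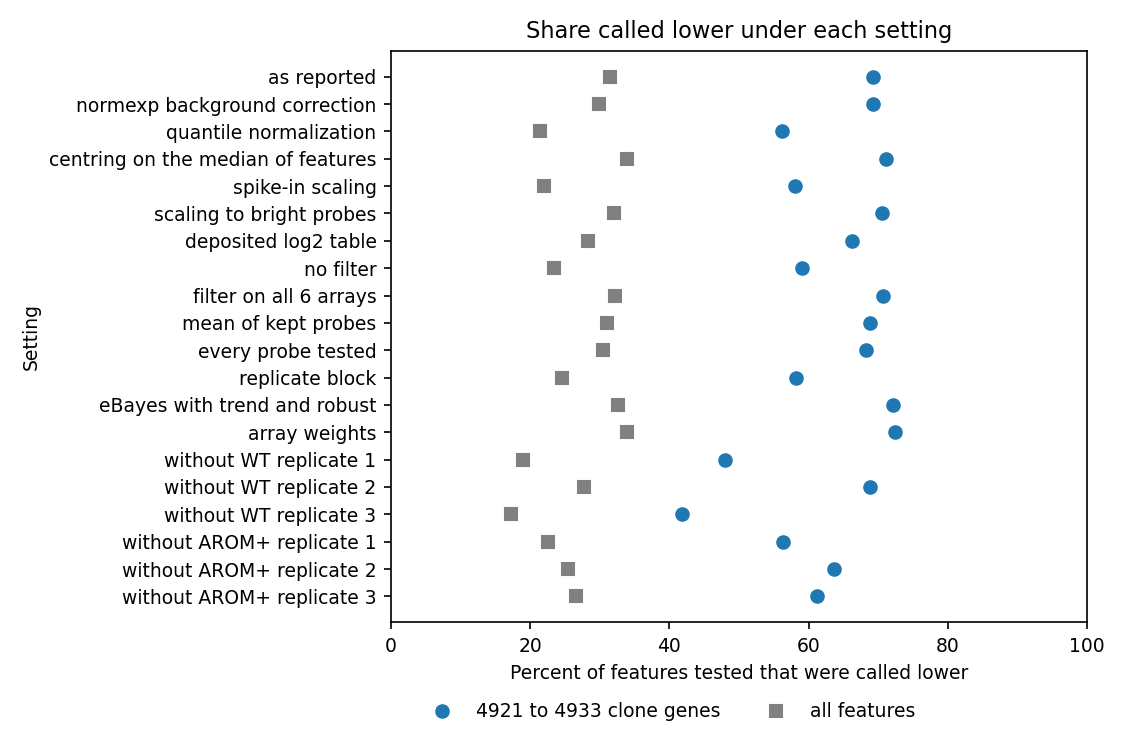
Percent of features tested that were called lower (horizontal axis) under the setting reported and 19 others (vertical axis), for the clone genes (blue circles) and all features (grey squares). The blue circle lies to the right of the grey square in every line, from 41.8% against 17.2% without WT replicate 3 to 72.5% against 33.9% with array weights.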

How the data were processed

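RNA of 3 WT and 3 AROM+ testes was read on 6 one-colour Agilent arrays (Cy3, design of the mm9 build per the file headers). The authors deposited Feature Extraction output (Agilent; the file headers give version 10.7.3.1, the submitters' processing notes 10.10). The processed signal in it is an intensity with the background already subtracted, per the file headers. They also deposited a table of log2 values. These lay close to log2 of the processed signal less 1 constant per array (slope 1.00, residual standard deviation 0.045 to 0.073). Genes were not centred in that table. The medians of its WT columns were −3.12, −3.11 and −3.09, those of its AROM+ columns −3.05, −3.09 and −3.02. Each array had 62976 spots; 3671 control spots and 123 to 192 outlier spots were left out, and spots of 1 probe were averaged (55681 probes). From log2 of the processed signal the array's 75th percentile was subtracted. A feature is a gene or locus name of the files, read by its brightest probe, and was tested if that probe stood well above background on each array of 1 group or both (28917 of 34844). AROM+ was set against WT with limma's lmFit and eBayes (limma 3.58.1, R 4.3.3) and Benjamini-Hochberg adjustment over all features tested and a threshold of 0.05. The fit was tested on simulated data.

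Members, lists and tests were chosen with earlier results of these data known. Named genes are the 10 largest rises and falls among called members measured on all arrays whose groups did not overlap, the largest bounds, the smallest adjusted p per prefix and class, the 4 most precise members not called, up to 10 renamed genes, and called pairs of neighbours. The other called rises, 4930523C07Rik and the genes under other observations were named after their values were seen. Gene names, biotypes and promoter windows are from RefSeq (GRCm38.p6). The number of arrays limits the precision.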

Additional observations from a re-analysis of the deposited data

How the results depend on the processing

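The settings tried beside the reported one were normexp background correction (offset 50), quantile normalization, centring, scaling to spike-ins or to bright probes, the authors' log2 table, no filter and a filter on all 6 arrays, the mean of probes, every probe, the replicate block, a trend, array weights and leaving out each array. The count called lower (458) stayed within 1.5 times under each setting that kept all arrays. The count called higher (15) was 5 with spike-in scaling and 8 with no filter. The count at least 2-fold lower (33) was 15 with normexp background correction, and the count at least 2-fold higher (2) was 1 with no filter, with the replicate block and with array weights. On leaving out 1 array the count lower ranged from 277 to 456, the count higher from 4 to 11, the count at least 2-fold lower from 18 to 54 and at least 2-fold higher from 1 to 2. The cause of these moves was not tested, beyond the fewer arrays or the more features tested. With quantile normalization 4930401B11Rik turned to 0.13 and 4933434E20Rik to 0.0075, and neither was called in the reported fit. Replicate numbers, which are also slide columns, did not pair the arrays: same-numbered arrays deviated from their group means with correlations of 0.05, −0.17 and 0.05 over all features, and with the replicate block 385 members were lower and 10 higher. The block ended the calls of 4930486L24Rik (adjusted p = 0.0552), 4931440J10Rik (0.0672) and 4930577N17Rik (0.1003), and of no other named gene. The dim genes named above changed size most with normexp background correction, so intensities near background limit what their fold changes mean.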

Other observations

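A few clone genes were far lower on 1 array than on the other 2 of its group. The criterion was a gap of more than 1 on the log2 scale to the next array, with the other 2 arrays less than 0.50 apart. It was chosen after the values were seen. It was met by 8 of the 662 clone genes: 1 on WT replicate 1, 1 on WT replicate 2, 1 on AROM+ replicate 2 and 5 on AROM+ replicate 3. Over the 28917 features tested the counts were 35, 80 and 21 on the WT arrays and 52, 61 and 99 on the AROM+ arrays. Such gaps were therefore not particular to the clone genes. For 4930443O20Rik (chr2:84913774-84913833, mm9) the arrays gave −0.02, −0.31 and −0.24 in WT and −0.68, −0.43 and −5.73 in AROM+. The difference of −2.09 ± 1.33 was the largest in size among the clone genes and was not called (limma, adjusted p = 0.232). Its nearest neighbour, Tnks1bp1, a tankyrase-binding protein, differed by 0.75 ± 0.14 (adjusted p = 0.00881), with its probe 631 bases away on the other strand. For 4930470F04Rik (chr19:60020304-60020363, mm9) the arrays gave 0.44, 0.45 and 0.50 in WT and −0.32, 0.06 and −1.96 in AROM+, a difference of −1.20 ± 0.48 that was not called (adjusted p = 0.0801).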
